A study of Capra hircus with 10 samples.

Results

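The circular RNAs (circRNAs) spliced from the 2 genes of the collagen V chains, COL5A1 and COL5A2, were described in goat intramuscular fat cells. They were taken as every circRNA of the deposited table whose host gene is named COL5A1 or COL5A2, which gave 2 circRNAs of 1327, circ_0005870 from COL5A1 and circ_0000993 from COL5A2. Each gene had a single circRNA, as did 701 of the 945 named host genes (74.2%). The pair was selected on the junction and non-junction reads of the same libraries, with the difference between the cell groups already known, so its values in the groups are given as a description and without p-values.

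The RNA of intramuscular preadipocytes (IMPA, day 0) and of intramuscular adipocytes (IMA, day 3) was sequenced after removal of ribosomal RNA, in 5 libraries each, to ask which circRNAs change when the precursor cells become fat cells. All cells were wild type and were grown from the intramuscular fat of the longissimus dorsi muscle of 3 male Jianzhou goats aged 7 days. IMPA were collected when the medium was changed, and IMA after 3 days in medium with serum and 50 μmol/L oleic acid, so the groups differ in time in culture as well as in induction. The goat behind each library is not given in the sources used here and 5 libraries per group cannot all be separate goats, so p-values measure the spread between libraries, which may be partly technical.

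Collagen V is a fibril-forming collagen that is built into the fibrils of collagen I and limits how thick they become. Its usual molecule winds the chains encoded by COL5A1 and COL5A2 into a triple helix, and the helical part of each chain is a long run of Gly-X-Y triplets. A circRNA forms when the end of an exon is joined back to the start of an exon upstream, and reads across that back-splice junction come from the circle, whereas non-junction reads at the same ends come from linear RNA that was spliced or transcribed straight through.

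Both circles were made of 5 exons on the minus strand. The COL5A1 circle (gene identifier 108633220) lay at chr11:105098461-105103883 and joined exons of 108, 54, 54, 108 and 108 bases into 432 bases, with introns of 953, 1190, 96 and 2752 bases between them. The COL5A2 circle (gene identifier 102183732) lay at chr2:129201370-129203710 and joined exons of 99, 54, 54, 54 and 54 bases into 315 bases, with introns of 108, 93, 1020 and 805 bases. Positions are those of the deposited table, which gives versioned chromosome sequences and no name of a genome build. The exons filled 7.97% of the span in COL5A1 and 13.5% in COL5A2.

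Every one of these exons was a whole multiple of 9 bases, the length that encodes a Gly-X-Y triplet. By length alone the COL5A1 circle equalled 48 such units and the COL5A2 circle 35, and neither sequence nor reading phase was checked. Exon circRNAs of the series had a median of 2 exons, 38 of 1274 (2.98%) had 5, and 47 had 5 or more. Every exon was a multiple of 9 in 41 of 1274 exon circRNAs (3.22%), in 13 of the 1077 with 2 or more exons (1.21%) and in 2 of the 47 with 5 or more (4.26%), which were those of collagen V. The 13 also held COL14A1 circ_0007464, which joins 2 exons into 216 bases. Exons of 54 bases are a length known from fibrillar collagen genes, and 6 of the 22 different exons of 54 bases in the whole table lay in these 2 circles. Exon and intron lengths are those of the annotation between the 2 ends, and the deposited values do not show which exons each read contained.

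**Figure D1:**
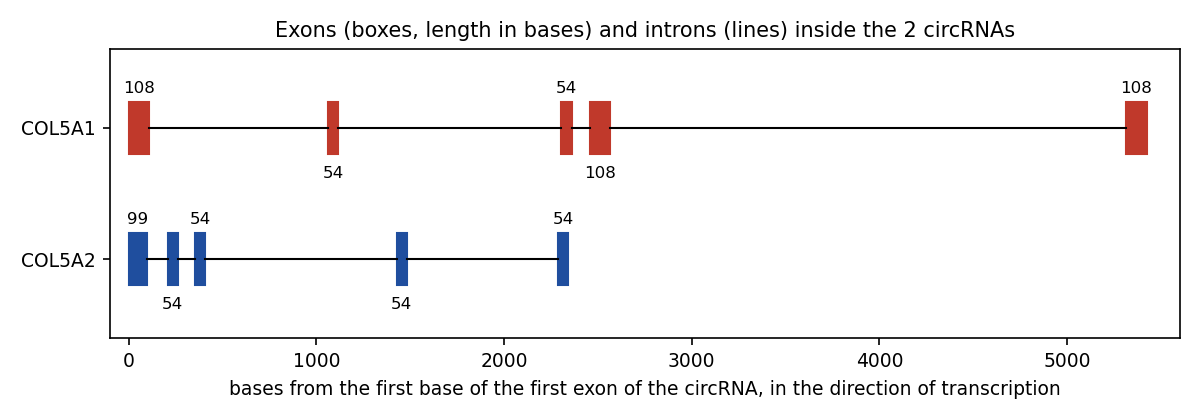
Exons (boxes, with their lengths in bases) and introns (lines) inside the COL5A1 and COL5A2 circRNAs, drawn to scale from the first base of the first exon in the direction of transcription. Both hold 5 short exons, and the last exon of the COL5A1 circle lies beyond an intron of 2752 bases.

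Junction reads over all circRNAs came to 11421 to 15553 per IMPA library and 9622 to 12499 per IMA library, so a single read was worth 64.3 to 87.6 CPM (counts per 1000000 junction reads) in the former and 80 to 104 CPM in the latter. Of the counts above 0, 68.8% were under 10, which limits the changes that the junction test can detect. Junction counts were either 0 or at least 2, and a 0 may stand for a circle that was not called in that library. Non-junction reads were listed only where the circle was called. PLIN2, which coats fat droplets, was the only one of 28 adipocyte genes with a circRNA, and the non-junction reads at its circ_0004263 rose by 1.93 ± 0.12 (SE) on the log2 scale in IMA (edgeR quasi-likelihood test, adjusted p = 1.51e-14).

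COL5A1 was the collagen V chain whose circle was read mainly in IMA. Its junction reads in IMPA1 to IMPA5 were 0, 0, 3, 0 and 0. In IMA1 to IMA5 they were 9, 9, 6, 8 and 6. The circle was thus listed in all 5 IMA libraries and in only 1 IMPA library, and the groups did not overlap. After scaling to CPM with TMM factors its level was 698 ± 161 (SD, n = 5) in IMA and 44.6 ± 99.6 (n = 5) in IMPA, where IMPA3 alone gave 223. Of all 1294 circRNAs tested, 2.24% were higher in every IMA library than in any IMPA library on this scale and 2.32% were lower, and this contrast is the one by which the gene was chosen.

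Summed over the libraries and divided by their effective sizes, the 38 reads of IMA and 3 reads of IMPA gave a ratio of 15.2, with an exact 95% counting interval of 4.82 to 76.9. Without IMPA3 no junction read was left in IMPA, and the ratio was at least 12.1-fold against a floor of 3 reads over the group, if the zeros are counts. Intervals cover counting error only, since reads without molecular identifiers are not independent molecules. In the edgeR fit the COL5A1 log2 fold change was 2.03, or 4.08-fold, a value drawn towards 0 by the prior count of 2.

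Of the 27 striated muscle genes listed, 3 had a circRNA. By junction reads MYPN was called higher in IMA (adjusted p = 0.000977, edgeR), as were 0.464% of all 1294 circRNAs tested. PAX7 was not called (adjusted p = 0.853, edgeR). MYBPC1 was read only in IMA, so it met the filter of 5 or more libraries through that group alone. No p is given for it. The sum of the junction reads of all 3 ranged from 13 to 21 over the IMPA libraries and from 20 to 42 over the IMA libraries. The circle of MYBPC1, a thick filament protein, was at 0 throughout IMPA and had 5 to 10 reads in each IMA library. The circle of MYPN, a Z-disc protein, had 2 to 3 reads in IMPA libraries and 7 to 14 in those of IMA, and that of PAX7, a factor of muscle stem cells, had 11 to 19 and 8 to 19. The other 24 muscle genes, among them MYH3, TTN and MYOG, had no circRNA in the table. The part of muscle cells in the COL5A1 values was not tested, and in bulk samples fewer cells of a type and less RNA per cell cannot be told apart.

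COL5A2 had few circular reads in both groups. Its junction reads were 4, 2, 10, 7 and 6 in IMPA1 to IMPA5. They were 2, 2, 4, 2 and 3 in IMA1 to IMA5. The groups overlapped, and 3 of the 5 IMA libraries stood at 2 reads, the smallest count that occurs above 0. On the TMM-scaled scale the level was 437 ± 228 CPM in IMPA and 234 ± 65 CPM in IMA (SD, n = 5 each). The log2 fold change of the edgeR fit was -0.59. The ratio of summed reads, 0.537, had a 95% counting interval of 0.256 to 1.07.

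Within a library the order of the 2 circles differed between the groups. COL5A2 had more junction reads than COL5A1 in every IMPA library, with 10 against 3 reads in IMPA3, the only one in which both were listed. In every IMA library COL5A1 had more, by 4.5, 4.5, 1.5, 4 and 2 times in IMA1 to IMA5. These ratios rest on 2 to 9 reads per circle, and no test was made of them.

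**Figure D2:**
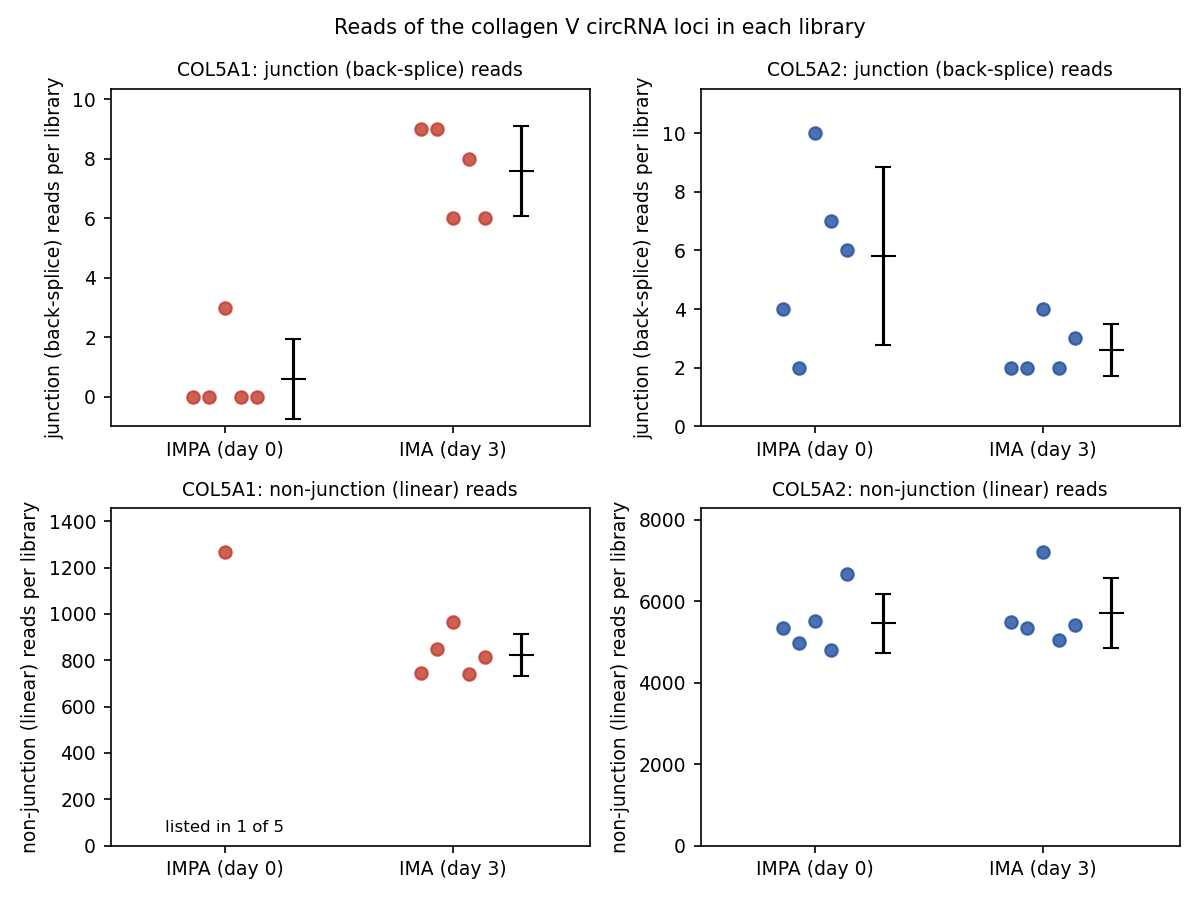
Junction reads (upper row) and non-junction reads (lower row) of the COL5A1 and COL5A2 loci, 1 point per library, with the mean and SD of each group beside the points where a group has more than 1 value. COL5A1 junction reads lie at 6 to 9 in IMA and at 0 in all IMPA libraries but IMPA3, while its non-junction reads are listed in 1 of 5 IMPA libraries.

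The linear RNA at both loci was far more abundant than the circles. At the COL5A2 circle the non-junction reads were 5347, 4979, 5516, 4814 and 6665 in IMPA1 to IMPA5. They were 5492, 5354, 7205, 5059 and 5426 in IMA1 to IMA5. As raw reads the groups overlapped, with means of 5464 ± 727 and 5707 ± 853 (SD), while the IMA libraries held fewer non-junction reads over the 690 loci listed in all libraries (128138 to 173047, against 177795 to 244354 in IMPA). No locus had more of these reads than COL5A2 in any IMA library, and in IMPA its rank was between 1 and 3, at 30.1 to 53.4 times the median locus of a library over all 10. Non-junction reads were counted at the ends of a circle, so loci are compared per circle end and not per gene length.

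After scaling, the COL5A2 linear level was higher in IMA. TMM-scaled non-junction reads were 25499, 27188, 26589, 23808 and 26547 CPM in IMPA1 to IMPA5. In IMA1 to IMA5 they were 38889, 40091, 42090, 40643 and 39615 CPM. The groups did not overlap, with means of 25926 ± 1331 and 40266 ± 1206 CPM (SD, n = 5 each), where 12.2% of the 690 loci were higher in every IMA library on this scale. The log2 fold change was 0.63 ± 0.04 (SE), or 1.55-fold, which ranked 12 among the 690 loci. Per 1000000 uniquely mapped reads the groups also did not overlap, with 67.1 to 77.2 in the IMPA libraries and 102 to 121 in the IMA libraries. The study reports a lower mapping ratio for every IMA library than for any IMPA library, so mapping differed with group as well. The part of mapping in these values was not tested. The junction reads of COL5A2 had a log2 fold change of -0.59. Non-junction reads of some cell type markers also rose in IMA. FBN1, a microfibril protein of fibroblasts, rose by 0.34 ± 0.06 and 0.29 ± 0.05 at its 2 loci (adjusted p = 1.84e-05 and 0.000101, edgeR). MYPN rose by 0.84 ± 0.10 (adjusted p = 6.85e-08, edgeR), and PLIN2 rose as given above. PAX7 was not called, at 0.20 ± 0.11 (adjusted p = 0.149, edgeR). The part of these markers in the COL5A2 values was not tested.

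At the COL5A1 circle the non-junction reads were 1266 in IMPA3, the only IMPA library with a value. They were 744, 848, 964, 741 and 812 in IMA1 to IMA5, a mean of 822 ± 91.6 (SD, n = 5). Per 1000000 uniquely mapped reads the value was 17.5 in IMPA3 and 13.8, 17.3, 16.1, 16.1 and 16.3 in the IMA libraries. The single IMPA value thus lay above all 5 IMA values, though the highest IMA value was close to it, and with 1 library the linear levels of the groups were not compared.

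The linear reads of both chains stood in a narrow ratio in IMA. COL5A2 had 7.38, 6.31, 7.47, 6.83 and 6.68 times the non-junction reads of COL5A1 in IMA1 to IMA5 (6.94 ± 0.488, SD). In IMPA3 the ratio was 4.36, below all IMA libraries. The collagen V molecule most often described has more of the COL5A1 chain than of the COL5A2 chain, and these reads count RNA at 1 circle of each gene and not chains.

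The circular share counts each junction read as 2 and takes these as a percentage of themselves plus the non-junction reads. It sets circle against linear RNA within a library and needs no scaling. For COL5A1 it was 2.36%, 2.08%, 1.23%, 2.11% and 1.46% in IMA1 to IMA5, a mean of 1.85% ± 0.481 (SD, n = 5). In IMPA3 it was 0.472%, with an exact 95% binomial interval of 0.0975% to 1.37%. That interval covers counting error in 1 library only, and the groups were not compared. Summed over the 5 IMA libraries the share was 1.82%, with an interval of 1.29% to 2.48%.

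For COL5A2 the share was 0.149%, 0.0803%, 0.361%, 0.29% and 0.18% in IMPA1 to IMPA5, a mean of 0.212% ± 0.113 (SD). In IMA1 to IMA5 it was 0.0728%, 0.0747%, 0.111%, 0.079% and 0.11%, a mean of 0.0896% ± 0.0194. The groups overlapped because IMPA2 lay inside the range of IMA. Summed reads gave 0.212% in IMPA, with a 95% interval of 0.142% to 0.304%, and 0.091% in IMA, with an interval of 0.0485% to 0.156%, and these intervals overlapped as well.

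Over the 690 loci listed in all 10 libraries, the median share was 10.4% in IMPA and 12.8% in IMA. The mean share of 509 loci was higher in IMA and that of 181 lower, COL5A2 among the latter, while 4.93% of loci were higher in all IMA libraries and 0.145% were lower in all of them. COL5A2 had the lowest mean share of all 690 loci. Its share was the lowest of the library in 4 of the 5 IMA libraries and next to the lowest in the other, and had a rank of 1 to 10 from the bottom in IMPA. COL5A1 ranked 56th to 116th from the bottom among the 1110 to 1189 loci listed in an IMA library.

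**Figure D3:**
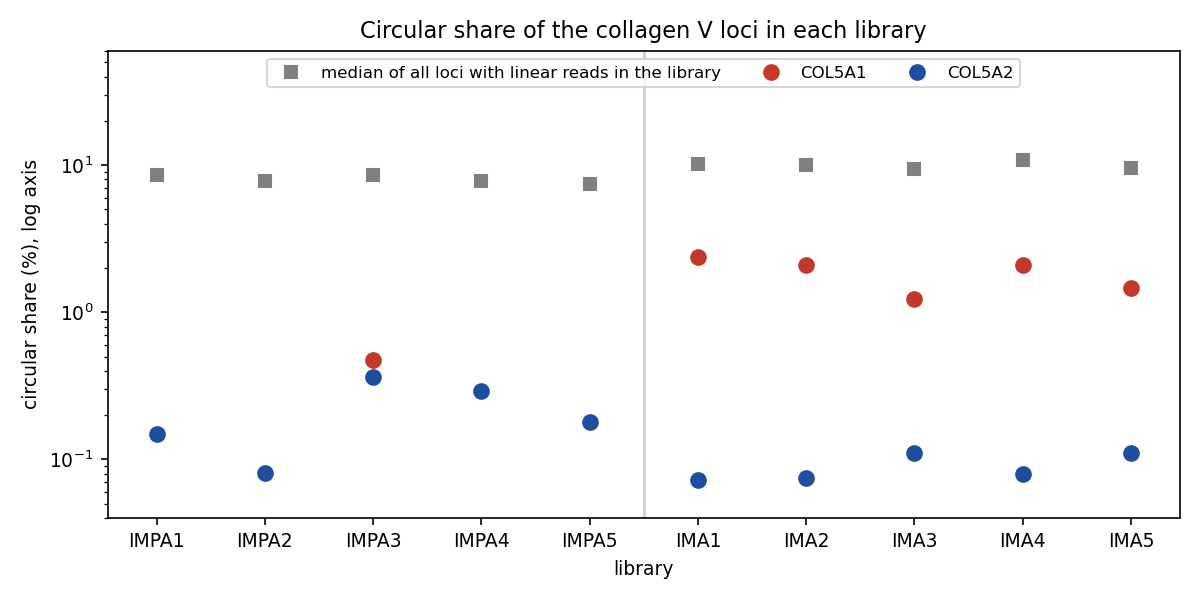
Circular share in percent, on a log axis, of COL5A1 (listed in IMPA3 and all IMA libraries) and COL5A2 in each of the 10 libraries, with the median over all loci that have linear reads in that library as grey squares. Each gene lies below the median in every library where it is listed. In IMA the COL5A1 share is 11.1 to 32.5 times that of COL5A2, against 1.31 times in IMPA3.

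The position of the pair among all loci was described in IMA, where both circles were listed throughout. Of the 852 loci with linear reads in all 5 IMA libraries, COL5A2 ranked 1st and COL5A1 41st by mean linear reads. By mean circular share, COL5A2 was the lowest and COL5A1 the 43rd from the lowest. The linear reads enter both measures, and since no listed count is under 2, loci with more linear reads can show lower shares.

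**Figure D4:**
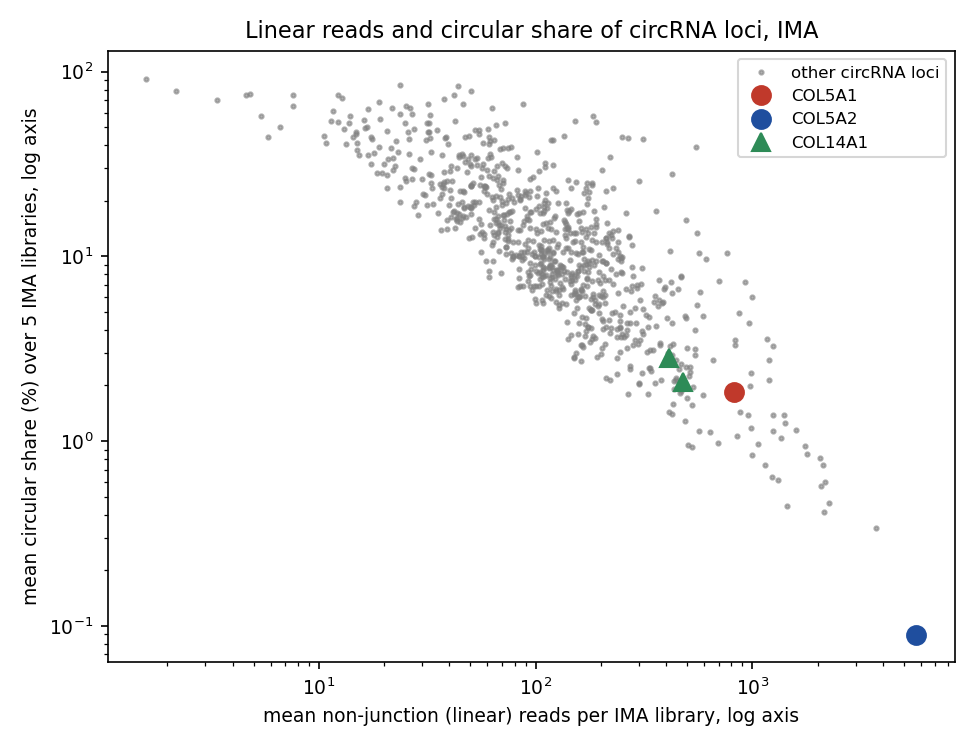
Mean non-junction reads per IMA library (log axis) against mean circular share in percent over 5 IMA libraries (log axis) for the 852 loci with linear reads in all of them. COL5A2 lies alone at the lower right, and COL5A1 lies near the 2 loci of COL14A1, the only other collagen chain gene with circRNAs.

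COL14A1, the gene of a collagen that sits on the surface of fibrils, was the only other gene with a circRNA among the 44 collagen chain genes listed, so the fibrillar chains COL1A1, COL1A2 and COL3A1 had none in the table. Its circ_0007463 had 3 to 14 junction reads per IMPA library and 3 to 9 per IMA library, with a circular share of 2.73% ± 1.5 and 2.1% ± 0.878 (SD). Its circ_0007464 had 3 to 8 and 3 to 11 junction reads and a share of 1.97% ± 1.05 and 2.8% ± 1.47. Neither circle passed the junction test (adjusted p = 0.72 and 0.683, edgeR), in which 0.464% of 1294 circRNAs were called higher and 0.464% lower at an adjusted p under 0.01. Its linear reads at circ_0007463 rose by 0.26 ± 0.08 on the log2 scale (adjusted p = 0.00851, where 11.6% of 690 loci were called higher). That call was lost in 9 of 16 alternatives, among them the test without any 1 of IMPA1, IMPA5, IMA1, IMA2, IMA4 or IMA5. The value at circ_0007464 was 0.23 ± 0.08 (adjusted p = 0.0262).

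Genes that make, trim and secrete collagen had 7 circRNAs from 5 of the 51 genes listed. None of the 7 passed the junction test in either direction by edgeR or by DESeq2's Wald test (1 was lower, ADAMTS14, and none higher at an unadjusted p under 0.05), with a median log2 fold change of -0.33 beside -0.07 over all circRNAs. Of the 4 loci with linear reads in every library, 2 were called lower in IMA and none higher (none also at an unadjusted p under 0.05 and by DESeq2), with a median of -0.28 beside 0.00 over all loci, where 10.1% of loci were called lower. ADAMTS14, which cuts the amino end of procollagens, fell by 0.90 ± 0.11 on the log2 scale (SE, adjusted p = 9.96e-08), from 812 ± 104 to 432 ± 40.1 CPM (SD, n = 5 each). CRTAP, a part of the prolyl 3-hydroxylation complex, had at circ_0010217 a log2 fold change of -0.30 ± 0.07 (adjusted p = 0.000712).

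Receptors for the matrix and the focal adhesion proteins behind them had 29 circRNAs from 16 of 66 genes, and 28 were tested. None of the circles was called in either direction by edgeR. At an unadjusted p under 0.05, 1 was higher and 1 lower, both of the integrin chain ITGAV. Each of these was at 0 throughout 1 group and met the filter through the other group alone. DESeq2 called 1 circle of the list lower. Of the 14 loci in the linear test, 7 loci of 4 genes were called lower in IMA and none higher (1, ITGB8, at an unadjusted p under 0.05 and none by DESeq2), beside 10.1% of all loci called lower and 11.6% higher. Their median was -0.33, beside 0.00 over all loci. DDR2, a kinase receptor for fibrillar collagens, had a log2 fold change of -0.43 ± 0.06 (adjusted p = 2.38e-06), from 3134 ± 146 to 2331 ± 108 CPM. The integrin chain ITGA4 was lower at both of its loci tested, with -0.49 ± 0.07 at circ_0000922 and -0.44 ± 0.07 at circ_0000924 (adjusted p = 5.48e-06 and 6.74e-06). DOCK1, an exchange factor for RAC, was lower at 3 of its 5 loci tested (-0.52 to -0.34, adjusted p = 0.000101 to 0.004), and TNS3, a tensin of focal adhesions, had -0.62 ± 0.16 (adjusted p = 0.00274). The call of DOCK1 circ_0011147 was lost in 5 of 16 alternatives, without IMPA1, IMPA4, IMA1, IMA2 or IMA5, and that of TNS3 in 2, without IMPA5 or IMA1. Loci of 1 gene share its linear RNA and are not separate observations.

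The share of loci called higher depended on the scaling, with 80 called higher and 70 lower by TMM, 48 and 106 by the sum of the reads, and 49 and 93 by uniquely mapped reads. The linear log2 fold change of COL5A2 kept its sign under all of these.

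**Figure D5:**
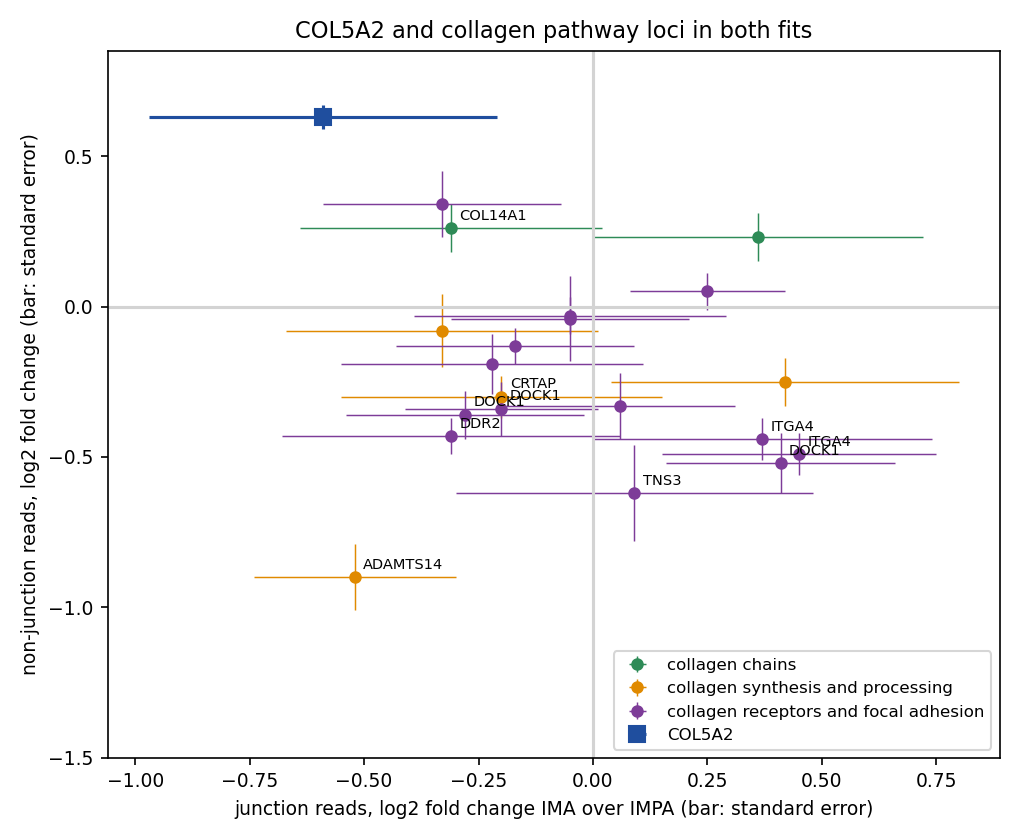
Log2 fold change of IMA over IMPA in junction reads (horizontal) and non-junction reads (vertical) for COL5A2 and the loci of the collagen lists with linear reads in all 10 libraries, with standard errors as bars and names for loci called in the non-junction test at an adjusted p under 0.01. COL5A2 lies at the upper left, at -0.59 and 0.63, and ADAMTS14 lies lowest, at -0.52 and -0.90. The horizontal bars may understate the spread at low counts.

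The circRNAs whose junction reads followed each circle most closely over the 10 libraries were different for the 2 chains. By Pearson correlation of log2(CPM + 50) with 1292 others, COL5A1 was nearest to PHF10 circ_0005154 (r = 0.97, a chromatin remodelling subunit), VASH2 circ_0008259 (r = 0.93, a tubulin carboxypeptidase) and SRSF11 circ_0001729 (r = 0.92, a splicing regulator). Those of PHF10 and SRSF11 had at most 3 reads in any library, whereas VASH2 had 88 to 144 in IMPA and 160 to 186 in IMA. COL5A2 was nearest to DPY19L4 circ_0007221 (r = 0.91), FBXL17 circ_0003823 (r = 0.83, an F-box protein) and circ_0008421 (r = 0.81), which has no named host gene. The correlations run over both groups, so they take in the difference between groups that was known when the pair was chosen. All 3 circles nearest to COL5A1 had a higher mean level in IMA than in IMPA. The points also share libraries and depth, so the values describe these libraries only.

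The deposited list of predicted pairs names miRNAs for both circles, without scores or positions. COL5A1 had 12 miRNAs, or 2.78 per 100 bases, and COL5A2 had 16, or 5.08 per 100 bases, beside a median of 2.99 over 1315 circRNAs. More miRNAs per 100 bases were listed for 57.4% of circRNAs than for COL5A1 and for 8.14% than for COL5A2. The circles shared 3 miRNAs, miR-140-3p, miR-504 and miR-671-5p, which is 25% of the COL5A1 list and 18.8% of the COL5A2 list. Each of these was paired with 27 to 58 circRNAs. The 3 were picked as the miRNAs listed for both circles, so their pairing with both was fixed in advance. No other circRNA was paired with all 3, and miRNAs shared by other pairs of circRNAs were not counted. On the sequence across the back-splice, which linear RNA lacks, COL5A1 was paired with miR-1249 and miR-532-3p and COL5A2 with miR-502b-3p. The COL5A2 list also held miR-10a-5p, miR-10b-5p, miR-26b-3p, miR-338-3p and miR-7-5p, and the COL5A1 list miR-128-5p, miR-423-5p and miR-216b. Levels of these miRNAs were not analysed here.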

How the data were processed

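The authors removed ribosomal RNA, filtered the reads, called circRNAs with find_circ (at least 2 reads) and CIRI2, and kept locations found by both. The deposited junction read counts are raw. The deposited values named TPM are CPM without a length term, computed by the authors as counts per 1000000 circRNA reads of the library (largest difference from this formula 4.99e-06). Aligner settings, versions and the name of the genome build are not given in the sources used here. The lists of non-junction reads also name 10 further libraries, which were not used.

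The members, gene lists and tests were chosen with earlier results of these data known. Groups were compared with edgeR 4.0.16 in R 4.3.3 (TMM, quasi-likelihood test, prior count 2, Benjamini-Hochberg, threshold 0.01), in place of the study's DEGseq, on the 1294 circRNAs read in 5 or more libraries. Non-junction reads are missing where a circle was not called, so the same test was run on the 690 loci with values in all 10 libraries, which departs from the planned filter of 5 libraries. COL5A1 is not among them. The SE of a log2 fold change is its absolute value divided by the square root of the test's F. Since that value is drawn towards 0 by the prior count, the SE may understate the spread at low counts. Each test was checked on simulated data that held changes of 2-fold and 4-fold only. The non-junction test missed none of these, and whether it finds changes under 2-fold was not tested. The junction test missed most of the 2-fold changes and some of the 4-fold ones. A circle that did not pass the junction test may thus still differ. No 2 libraries were identical. Symbols matched RefSeq for both genes.

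Outside the 2 collagen V circles, the circRNAs named are those of the 3 collagen lists past the threshold (the 8 smallest adjusted p if more), those of COL14A1, and the 3 most like each circle. ITGAV circ_0000946, the values of marker genes and the single-library values were added beside them. Alternatives were DESeq2 1.42.0 size factors and Wald test, no TMM, uniquely mapped reads as library sizes (from the study's mapping table), no filter, a prior count of 0.5, 0.05 as threshold, a replicate block, other forms of the circular share, and each library left out. Marker lists of preadipocytes and fibroblasts (1 of 19 genes with a circRNA, FBN1, with 11 to 22 summed junction reads in IMPA and 12 to 23 in IMA), endothelial cells (0 of 8), immune cells (0 of 6) and smooth muscle and pericytes (0 of 7) were read the same way.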

Additional observations from a re-analysis of the deposited data

Results flagged for a closer look

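In IMPA, the COL5A1 circle stood apart in IMPA3, with 3 junction reads (209 CPM as deposited, 223 CPM after TMM scaling) against 0 in the other 4 libraries. The COL5A2 non-junction reads of IMA3, 7205, stood apart from the other IMA libraries as raw reads, and after TMM scaling this was no longer so. The limit is set so that chance marks about 1 in 20 groups of evenly varying values, a rate that was not checked for counts mostly at 0.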

How the results depend on the processing

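The COL5A2 non-junction log2 fold change, 0.63, was 0.57 with the sum of the reads as library size and 0.61 to 0.65 without 1 library, and its junction value, -0.59, lay between -0.73 and -0.40 without 1 library. The COL5A1 ratio of 15.2 was 11.7 to 16.8 without 1 library other than IMPA3, without which there is no ratio. The mean COL5A1 share in IMA was 0.93% as junction reads over all reads, and 1.72% to 2.0% without 1 library. The COL5A2 difference in share was -0.123 percentage points and -0.156 to -0.085 without 1 library, and it was -0.061 as junction reads over all reads. None of these changed direction.

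Over all circRNAs, 6 were called higher and 6 lower by junction reads. The number lower was 13 at 0.05, 2 without TMM and 1 with uniquely mapped reads, and it was 1 to 6 without 1 library (3 without IMPA1 or IMPA5, 2 without IMA1 or IMA2, 1 without IMA4). The number higher was 8 with uniquely mapped reads and 5 to 6 without 1 library. By non-junction reads, 80 higher became 127 at 0.05, 48 without TMM and 49 with uniquely mapped reads, and 70 lower became 119 at 0.05 and 106 without TMM, with 54 to 76 and 55 to 69 without 1 library. The COL14A1 count of 1 was 2 at 0.05, 0 without TMM, 0 with uniquely mapped reads and 0 to 2 without 1 library (2 without IMA3). In the receptor list 1 locus was called higher at 0.05, and 0 to 1 without 1 library (1 without IMPA4 or IMA3), while 5 to 7 were called lower. In the processing list 2 to 3 were called lower without 1 library. By junction reads, 1 circle of the 3 lists was called lower at 0.05, ITGAV circ_0000946, chosen after its values were seen. It was at 0 in all IMA libraries and met the filter through IMPA alone, so its p is not given. Without any 1 library, 0 circles of the lists were called in either direction.

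Same-numbered libraries did not deviate together (residual r of -0.052 to 0.011 by junction reads). With the replicate number as a block, the counts by non-junction reads were 93 and 80, COL14A1 had 2 loci called higher, and the receptor list 1. Running the non-junction test without a filter was not done, since reads are missing where a circle was not called. At these depths, counts of 0 to 10 junction reads per library limit both circles.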
